A study of Mus musculus with 24 samples.

Results

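The muscle microRNAs miR-1, miR-133a, miR-133b and miR-206 were followed in mouse soleus by 5 real-time PCR assays, of 584 microRNA assays on the cards. The assays were chosen by name, with the reagent number removed: mmu-miR-1, rno-miR-1, mmu-miR-133a, mmu-miR-133b and mmu-miR-206. All 5 were detected in all 12 animals, so none was lost to the limit on low values. The rat-named assay, rno-miR-1, was taken by its name as a second reading of miR-1, and its target sequence was not checked. The mice were males aged 12 weeks, in 4 groups of 3. MCK-PPARa mice overexpressed PPARα in muscle, and NTGa mice were their non-transgenic (wild-type) littermates. MCK-PPARb mice overexpressed PPARβ in muscle, with the non-transgenic (wild-type) littermates NTGb as controls. The MCK (muscle creatine kinase) promoter is active in muscle fibres, so these mice model a receptor raised in muscle rather than in the whole body. The receptors' own mRNA is not measured on these cards. The labels call the replicates biological and do not say more, so p-values set a difference against the spread between these samples.

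As nuclear receptors, PPARα and PPARβ raise the transcription of genes for fatty acid uptake and oxidation. miR-1 and miR-133a are made in skeletal and heart muscle from shared primary transcripts under the control of muscle transcription factors such as MyoD, myogenin and MEF2. miR-1 is known to favour differentiation of myoblasts. miR-133a is known to favour their proliferation and to restrain serum response factor. miR-206 and miR-133b come from another such pair. miR-206 is found in skeletal muscle, is rich in slow muscles such as the soleus, and has the same seed as miR-1. The seed is the stretch of a microRNA that pairs with its target mRNA.

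Both members of the miR-206 and miR-133b pair had an entry in the RefSeq table (GRCm38.p6), 2 of the 5 assays. They are shown because their levels are compared below, and the capitals mark the seed, bases 2 to 8.
miR-206-3p: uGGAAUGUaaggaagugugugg
miR-133b-3p: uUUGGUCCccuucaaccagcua
miR-206-3p lies at chr1:20679055-20679076 and miR-133b-3p at chr1:20682834-20682855, both on the plus strand, in the genes Mir206 and Mir133b. The 2 precursors are separated by 3686 bases. Their hairpins show the arm that is measured, in capitals, within the precursor.
Mir206: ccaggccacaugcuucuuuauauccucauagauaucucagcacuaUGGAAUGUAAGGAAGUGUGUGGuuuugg
Mir133b: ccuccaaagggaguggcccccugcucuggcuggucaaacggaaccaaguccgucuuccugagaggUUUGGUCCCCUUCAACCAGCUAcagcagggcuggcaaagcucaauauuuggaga
In both, the mature strand comes from the 3′ arm. The members are known to fall into 2 seed families, miR-1 with miR-206 and miR-133a with miR-133b. The seeds of miR-1 and miR-133a were not read here.

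Each well has a cycle threshold (Ct), the PCR cycle at which its signal passes a set line. Abundant templates pass early, at a low Ct. Between 248 and 296 microRNA assays were detected per animal at a Ct under 35. The scaled level of an assay is its Ct subtracted from a reference, on the log2 scale. The reference is the card's average over every microRNA that passed that limit in each of the 12 animals. A size in log2 units assumes that template doubles in each cycle, and a comparison between assays also assumes equal efficiency. Of the listed markers, 2 of 2 could be tested for endothelium, 1 of 2 for red cells and 5 of 6 for leukocytes. For fibroblasts and smooth muscle 4 of 5 could be tested, and for nerve 2 of 4. Leukocyte miR-142-5p, nerve miR-124 and miR-219, and liver miR-122 were not testable. None of the tested markers was called changed in either transgenic line.

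miR-133a was the most abundant microRNA in this soleus by Ct in all 12 animals. Its Ct ran from 16.98 to 17.54 with a median of 17.43, and its mean scaled level was 10.62 ± 0.30 (SD, n = 12). miR-206 came next on average, with a Ct from 18.04 to 18.90 (median 18.44) and a scaled level of 10.34 ± 0.38. On the scaled level miR-206 stood at rank 1 to 3 in single animals and miR-133a at rank 1 or 2, so their order was not fixed on that scale. miR-378, from an intron of the PGC-1β gene, followed at a mean Ct of 18.62. In every NTGa animal and in MCK-PPARa replicate 1, miR-378 had a lower Ct than miR-206, which then stood at rank 3.

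The rat miR-1 assay had a Ct from 18.97 to 20.25 (median 19.56) and stood at rank 4 to 6. Its neighbours in the order were endothelial miR-126-3p (mean Ct 19.58) above and miR-24 (19.67) below. The mean scaled levels of these 3, 8.41, 8.40 and 8.33, lay closer together than the SD of rat miR-1, 0.34. The mouse miR-1 assay had a Ct from 20.47 to 21.32 (median 20.90) and miR-133b one from 20.66 to 21.07 (median 20.93). Mouse miR-1 stood at rank 7 to 10 and miR-133b at rank 7 to 9, and the mean difference between them was 0.03 ± 0.21 (SD, n = 12), less than its spread. Above this pair came miR-126-5p and below it miR-29a, at a mean Ct of 21.32.

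**Figure D1:**
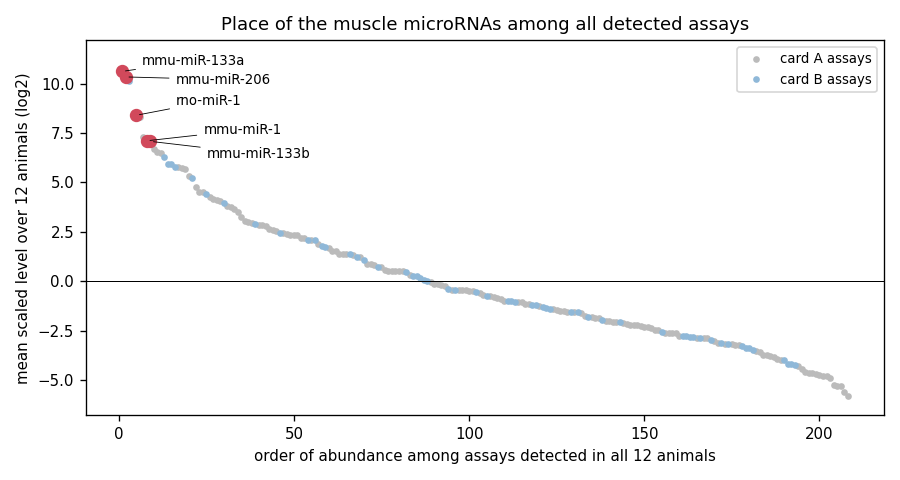
Mean scaled level over 12 animals (log2, y axis) of every assay detected in all of them, in order of abundance (x axis), with the 5 muscle microRNA assays as labelled large points and the other assays as small points coloured by card. The muscle microRNAs hold ranks 1, 2, 5, 8 and 9.

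As a share of the summed template of all detected microRNAs on its card, miR-133a made up 40.3% ± 2.85 (SD, n = 12) of card A. The rat miR-1 assay made up 8.78% ± 1.62, mouse miR-1 3.55% ± 0.437 and miR-133b 3.48% ± 0.366. miR-206 made up 45.8% ± 5.97 of card B, which holds other assays, so its share cannot be set against those of card A. The 2 miR-1 assays share a microRNA name and were run on 1 RNA sample, so their shares are not to be summed.

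The residual SD within groups was 0.218 for mouse miR-1, 0.246 for miR-206, 0.270 for miR-133b, 0.308 for rat miR-1 and 0.336 for miR-133a. The median of the 208 assays detected in all animals was 0.399, and that of the 37 with a mean Ct under 25 was 0.257. Against such abundant assays, mouse miR-1 and miR-206 were the members below the median. miR-206 was spotted in 2 wells of card B, which differed by a median of 0.0526 cycles and at most 0.149. The other 4 assays had 1 well each.

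In MCK-PPARa soleus none of the 5 muscle microRNA assays was called changed against NTGa. The rat miR-1 assay came closest, with a lower level and a higher Ct in every MCK-PPARa animal than in any NTGa animal, and miR-206 had the highest positive value. By limma with Benjamini-Hochberg adjustment over 268 tested assays, 2.24% of all assays were called in this comparison. In bulk muscle RNA, fewer fibres and less of a microRNA per fibre cannot be told apart.

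The Ct of rat miR-1 was 19.13, 18.97 and 19.18 in NTGa and 19.98, 19.59 and 20.03 in MCK-PPARa. The 3 NTGa animals had the lowest Ct of all 12 animals in this assay, and the groups did not overlap. The scaled level of rat miR-1 averaged 8.69 ± 0.05 (SD, n = 3) for NTGa and 8.10 ± 0.25 for MCK-PPARa. The log2 change was -0.59 (SE 0.27, 95% interval -1.19 to 0.01, limma adjusted p = 0.321). Against NTGb, where rat miR-1 stood at 8.44 ± 0.35, the value was -0.33.

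The mouse miR-1 assay had a Ct of 20.51, 20.47 and 20.74 in NTGa and 20.80, 20.99 and 20.82 in MCK-PPARa. The groups did not overlap on Ct, but they did on the scaled level, where NTGa stood at 7.21 ± 0.04 and MCK-PPARa at 7.10 ± 0.14. The log2 change was -0.11 (SE 0.22, 95% interval -0.61 to 0.38, limma adjusted p = 0.86).

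miR-206 had a Ct of 18.69, 18.79 and 18.90 in NTGa and 18.19, 18.49 and 18.25 in MCK-PPARa. All 3 MCK-PPARa animals read lower, that is with more template, than every NTGa animal, and NTGa had the 3 highest Ct of all 12 animals. Scaled, the groups overlapped, at 9.89 ± 0.24 and 10.25 ± 0.24 (n = 3 each), with a log2 change of 0.36 (SE 0.24, 95% interval -0.17 to 0.89, limma adjusted p = 0.517). The overlap came from MCK-PPARa replicate 1 alone, at 9.97, below NTGa replicate 2 at 10.10. Its card B reference, a mean Ct of 28.16, was the lowest of all 12 animals, where the highest was 29.34. Single assays of this animal on card B stood apart from the other animals in both directions. For miR-877 its Ct was 25.59, where the others ran from 27.72 to 31.52. For miR-374 it was 30.88, where the others ran from 26.78 to 28.27. Other such assays were not counted, and the cause was not tested. Leaving out 1 animal at a time gave log2 changes from 0.23 to 0.50. With U6 snRNA as the reference the log2 change of miR-206 was 0.56 (SE 0.21, limma adjusted p = 0.208). Against NTGb the scaled value turned to -0.31.

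miR-133a had a Ct of 17.32, 16.98 and 17.25 in NTGa and 17.41, 17.47 and 17.45 in MCK-PPARa. The MCK-PPARa readings lay within 0.1 cycles of each other and above those of NTGa, yet the scaled log2 change was only -0.08 (95% interval -0.72 to 0.56). miR-133b had a Ct of 20.94, 20.66 and 20.93 in NTGa and 20.88, 20.83 and 20.97 in MCK-PPARa. These groups overlapped on both scales, with a log2 change of 0.13 (95% interval -0.42 to 0.69). On Ct as deposited, 4 of 5 members did not overlap between MCK-PPARa and NTGa, where 23.1% of all assays did not. On the scaled level it was 1 of 5 members, rat miR-1, against 25.7% of all assays. The reference of card A had a mean Ct that differed between animals, from 27.56 to 28.44, and this moves every scaled value of an animal on that card together.

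**Figure D2:**
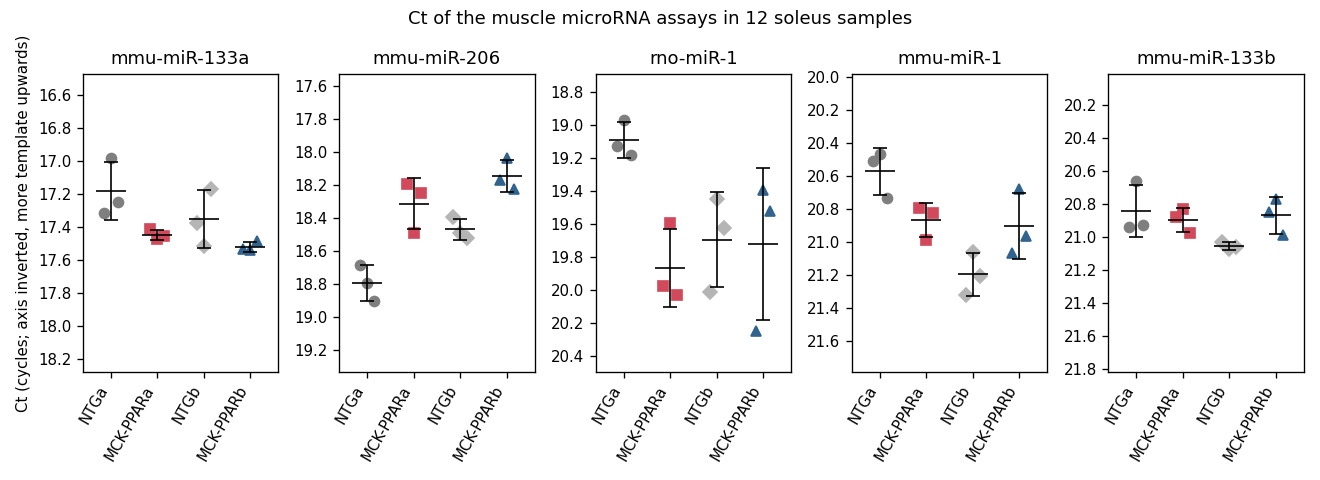
Ct in cycles (y axis, inverted so that more template is upwards) of the 5 muscle microRNA assays in the 4 groups (x axis), each point 1 animal, with the group mean as a bar and the SD as whiskers (n = 3). NTGa stands apart for rat miR-1, at 18.97 to 19.18, and for miR-206, at 18.69 to 18.90.

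In MCK-PPARb soleus none of the 5 assays was called against NTGb either, in a comparison where limma called 0% of the 268 assays. Before adjustment, 23 assays had a limma p under 0.05. Member values ran from -0.21 for miR-133a to 0.25 for mouse miR-1. Without NTGb replicate 2 the value of mouse miR-1 was 0.0314. miR-206 had the clearest separation on Ct, at 18.39, 18.49 and 18.52 in NTGb and 18.17, 18.04 and 18.22 in MCK-PPARb. The groups did not overlap, and the MCK-PPARb readings include the lowest of all 12 animals. Scaled, miR-206 stood at 10.56 ± 0.34 in NTGb and 10.66 ± 0.11 in MCK-PPARb, a log2 change of 0.09 (SE 0.24, 95% interval -0.43 to 0.62, limma adjusted p = 0.882).

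Mouse miR-1 had a Ct of 21.32, 21.06 and 21.21 in NTGb and 21.07, 20.68 and 20.97 in MCK-PPARb, which overlapped by less than 0.1 cycles. Its scaled log2 change was 0.25 (SE 0.22, 95% interval -0.25 to 0.74, limma adjusted p = 0.812). Rat miR-1 had a Ct of 20.01, 19.45 and 19.63 in NTGb and 20.25, 19.40 and 19.53 in MCK-PPARb. Its groups overlapped widely, MCK-PPARb replicate 1 held the highest reading of all 12 animals, and the log2 change was -0.07 (95% interval -0.68 to 0.53).

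miR-133b had a Ct of 21.03, 21.07 and 21.06 in NTGb and 20.85, 20.77 and 20.99 in MCK-PPARb, with no overlap and a scaled log2 change of 0.14 (95% interval -0.42 to 0.69). miR-133a had a Ct of 17.37, 17.52 and 17.17 in NTGb and 17.53, 17.54 and 17.49 in MCK-PPARb, with overlap and a log2 change of -0.21 (95% interval -0.85 to 0.42). On Ct, 2 of 5 members did not overlap, beside 14.6% of all assays, and on the scaled level 0 of 5, beside 15.3%. With U6 snRNA as the reference, mouse miR-1 was at 0.56, miR-206 at 0.48 and miR-133b at 0.45, with limma adjusted p of 0.228, 0.286 and 0.315. That reference moved the median of all tested assays from 0.02 to 0.33.

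The effects of the transgenes did not differ detectably for any member, with 1.12% of all assays called in that test. The difference, MCK-PPARa minus MCK-PPARb, was -0.52 for rat miR-1 (SE 0.38, limma adjusted p = 0.69), -0.36 for mouse miR-1 (SE 0.32, adjusted p = 0.755) and 0.27 for miR-206 (SE 0.34, adjusted p = 0.838). For miR-133a it was 0.13 and for miR-133b -0.01. Their 95% intervals were -0.77 to 1.04 and -0.79 to 0.78.

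The 2 groups of non-transgenic mice were also set against each other. miR-206 had a lower scaled level in NTGa than in NTGb (log2 value -0.67, SE 0.24, 95% interval -1.20 to -0.15, limma unadjusted p = 0.0172, adjusted p = 0.2), with no overlap. It did not pass the adjustment, and 1.87% of all assays were called. Mouse miR-1 was at 0.28, rat miR-1 at 0.26, miR-133a at -0.18 and miR-133b at -0.14. With U6 snRNA as the reference, mouse miR-1 was called higher in NTGa, at 0.83 (SE 0.22, limma adjusted p = 0.0434), and miR-206 was at -0.10. That reference moved the median of all tested assays from -0.03 to 0.49 and raised the calls from 5 to 29. On Ct, 4 of 5 members did not overlap between the control groups, beside 26.5% of all assays. On the scaled level it was 1 of 5, miR-206, beside 19.4%.

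**Figure D3:**
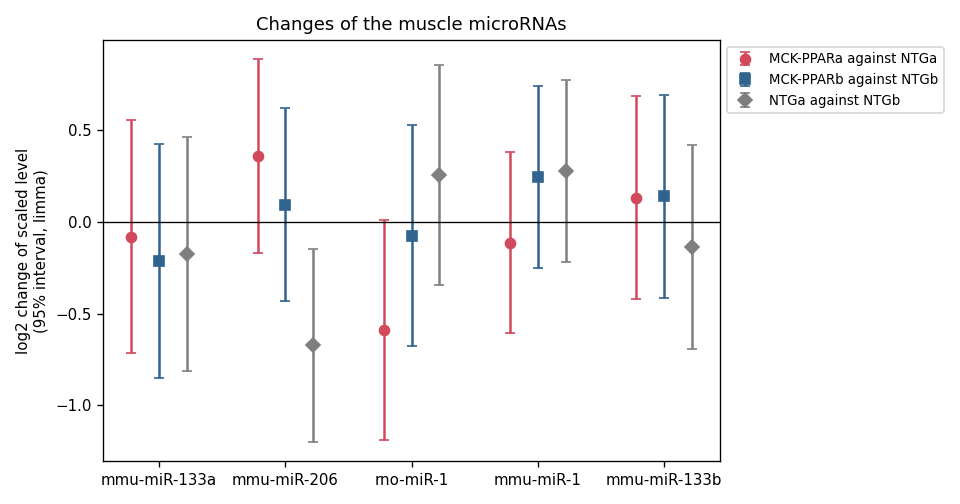
Log2 change of the scaled level (y axis) with its 95% interval from limma for each member (x axis), for either transgenic line against its littermates and for NTGa against NTGb. The interval lies off 0 only for miR-206 between the control groups, -1.20 to -0.15, and there the adjusted p is 0.2.

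Ratios within an animal and card need no reference, since the scaling cancels. miR-133a and miR-133b share a seed but come from different loci. Whether either assay also reads the other microRNA was not analysed. Their log2 ratio, miR-133a over miR-133b, was 3.62, 3.68 and 3.68 in NTGa and 3.47, 3.36 and 3.52 in MCK-PPARa. It was 3.66, 3.56 and 3.89 in NTGb and 3.32, 3.23 and 3.50 in MCK-PPARb. Every transgenic animal of a line stood below every control of that line.

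The ratio of miR-133a to miR-133b was thus lower by 0.21 in MCK-PPARa (ratio 0.863 of the controls', value -0.21, exact permutation p = 0.1, n = 3) and by 0.35 in MCK-PPARb (0.783 of the controls', value -0.35, exact p = 0.1). The control groups differed by -0.04 and overlapped. With groups of 3 the lowest exact p possible is 0.1. After Benjamini-Hochberg adjustment for 20 tests, 10 ratios in each of 2 lines, both exact p-values became 0.286, so no ratio passed. Leaving out each animal in turn moved the values from -0.25 to -0.17 in MCK-PPARa and from -0.43 to -0.26 in MCK-PPARb.

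In MCK-PPARa, 5 of 10 ratios did not overlap with the controls, beside 24.1% of the 21528 ratios of any 2 assays detected in all animals. The 4 ratios with miR-206 compare cards and move with the reference, while the 6 within card A do not. On Ct as deposited the count was 8 of 10, beside 23.9% of all ratios, and with U6 snRNA as the reference 8 of 10, beside 26%. The added ones were those of miR-206 with mouse miR-1, miR-133a and miR-133b. Of the 5 on the scaled level, 3 involve rat miR-1. Rat miR-1 over miR-133b was 1.81, 1.69 and 1.75 in NTGa and 0.90, 1.24 and 0.94 for MCK-PPARa, which gives a change of -0.72 (exact permutation p = 0.1, adjusted 0.286, n = 3). The 3 NTGa animals lay close together, with an SD of 0.06, and MCK-PPARa was at 0.606 of their ratio. miR-206 over rat miR-1, which compares cards, was 1.30, 1.40 and 0.89 in NTGa and 1.89, 2.01 and 2.54 in MCK-PPARa, a change of 0.95 or 1.93-fold (exact p = 0.1, adjusted 0.286, n = 3). With U6 snRNA as the reference this change was 1.33, and on Ct as deposited 1.26. The NTGa animals were the lowest of all 12, and NTGb stood at 2.13 ± 0.16, close to the 2.15 ± 0.34 of MCK-PPARa. miR-133a over rat miR-1 rose by 0.51 between group means without overlap, and mouse miR-1 over miR-133b was lower by 0.24 (value -0.24), also without overlap.

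The ratio of the members of a shared transcript, miR-133a over mouse miR-1, was 3.20, 3.49 and 3.49 in NTGa and 3.39, 3.52 and 3.37 in MCK-PPARa. These values overlapped, with a change of 0.03 (exact permutation p = 0.8, n = 3). In NTGb it was 3.95, 3.55 and 4.04 and in MCK-PPARb 3.53, 3.14 and 3.48. There the groups did not overlap, with a change of -0.46 (exact p = 0.1, adjusted 0.286, n = 3). The rat miR-1 assay gave another pattern. Against it miR-133a rose by 0.51 without overlap in MCK-PPARa. In MCK-PPARb the value was -0.14 with overlap (exact permutation p = 0.9, n = 3). The 2 miR-1 assays thus differed on which line showed a shift of this ratio. The other transcript pair, miR-206 over miR-133b, compares cards and so depends on the reference. On the scaled level its values were 0.23 in MCK-PPARa and -0.05 in MCK-PPARb, with overlap in both (exact permutation p = 0.4 and 0.7, n = 3). On Ct as deposited the ratio ran from 1.87 to 2.25 in NTGa and from 2.34 to 2.72 in MCK-PPARa, a difference of 0.54 without overlap. There NTGb ran from 2.54 to 2.63 and MCK-PPARb from 2.68 to 2.77, a difference of 0.14 without overlap. With U6 snRNA as the reference the MCK-PPARa value was 0.61 without overlap, and the MCK-PPARb value was 0.03 with overlap.

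In MCK-PPARb 2 of 10 ratios did not overlap, beside 14.6% of all ratios, and both were of miR-133a, over mouse miR-1 and over miR-133b, within card A. On Ct as deposited the count was 4 of 10, beside 14.6%, adding miR-133a over miR-206 and miR-206 over miR-133b. With U6 snRNA it was 3 of 10, beside 14.2%, adding miR-133a over miR-206. Between the control groups it was 7 of 10, beside 23% of all ratios. The largest of those was miR-206 over mouse miR-1, at 2.68 ± 0.23 in NTGa and 3.63 ± 0.05 in NTGb. The steadiest ratio within groups was miR-133a over miR-133b, with an SD of 0.12, and the least steady was miR-206 over rat miR-1, with 0.33.

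**Figure D4:**
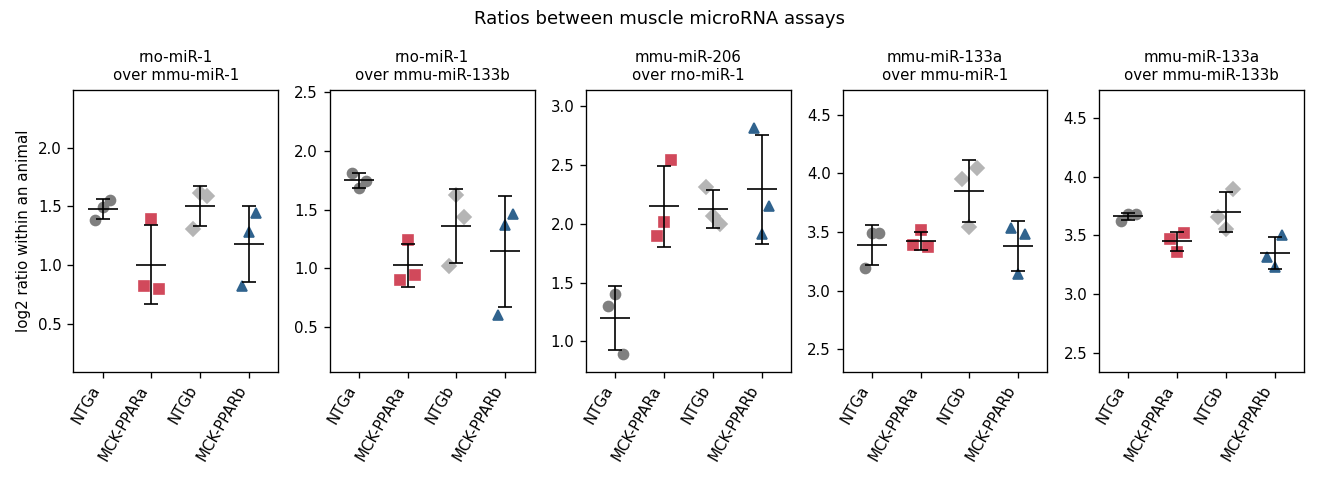
Log2 ratio within an animal (y axis) for 5 pairs of muscle microRNA assays in the 4 groups (x axis), each point 1 animal, with the group mean as a bar and the SD as whiskers (n = 3). For miR-133a over miR-133b the transgenic animals sit at 3.36 to 3.52 and 3.23 to 3.50, below their controls in both lines.

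The 2 miR-1 assays did not read alike. The rat assay was ahead of the mouse assay by 1.29 ± 0.31 cycles (SD, n = 12), from 0.79 to 1.62 in single animals. The gap was 1.39, 1.50 and 1.56 in NTGa and 0.82, 1.39 and 0.79 in MCK-PPARa. MCK-PPARa replicate 2 lay within the range of its controls, while replicates 1 and 3 stood well below them. In NTGb it was 1.31, 1.62 and 1.59, and in MCK-PPARb 0.82, 1.28 and 1.44, where replicate 1 was the low one. The changes, -0.48 in MCK-PPARa and -0.32 in MCK-PPARb, did not pass (exact permutation p = 0.2 each, adjusted 0.4, n = 3).

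Across the 12 animals the Ct of the assays had a Pearson r of 0.65 (permutation p = 0.0247, adjusted 0.0494) and a Spearman rho of 0.73 (p = 0.00943, adjusted 0.0377), adjusted over 4 tests. Without the 2 animals farthest from the median of mouse miR-1, NTGa replicate 2 and NTGb replicate 1, r was 0.45 (permutation p = 0.19, 10 animals), no longer past the threshold in a narrower range of Ct. On the scaled level r was 0.47 (permutation p = 0.111, adjusted 0.111) and rho 0.56 (p = 0.0615, adjusted 0.0821). There r was 0.60 without the 2 animals farthest from the median, MCK-PPARa replicate 2 and NTGb replicate 2. Of deviations from the group means, r was 0.55 on Ct and 0.58 on the scaled level. What each assay's primers and probe match was not analysed here.

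**Figure D5:**
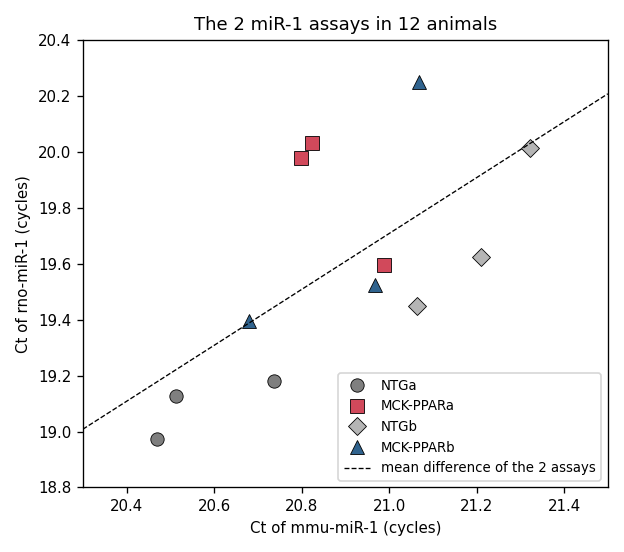
Ct of the rat miR-1 assay (y axis, cycles) against that of the mouse miR-1 assay (x axis, cycles), each point 1 of 12 animals marked by group, with the dashed line at the mean difference of 1.29 cycles. Points above the line, among them MCK-PPARa replicates 1 and 3 and MCK-PPARb replicate 1, read relatively little template in the rat assay.

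Likeness to other microRNAs was described by Pearson r of the scaled level over the 12 animals, among 130 other assays detected in all animals at a mean Ct under 30. These points share a reference, animals and mostly a card, so the values have no test. Rat miR-1 was most like miR-126-5p (r = 0.94), miR-30e (0.90) and miR-26b (0.87), and mouse miR-1 came only in place 19, at 0.47. MCK-PPARa replicates 1 and 3 and MCK-PPARb replicate 1 had the lowest scaled level of rat miR-1. On Ct, NTGb replicate 1 (20.01) read higher in that assay than MCK-PPARa replicate 1 (19.98). The animals with the lowest scaled level also had the highest Ct of all 12 animals in miR-126-5p (21.45, 21.54 and 22.15). The same held for rno-miR-196c (29.27, 28.99 and 28.93) and miR-19a (26.73, 26.35 and 27.86). Other such assays were not counted, and the cause was not tested. Mouse miR-1 was most like miR-30b (0.85), miR-139-5p (0.84) and miR-30a (0.83).

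Both arms of miR-126, an endothelial microRNA, made up the endothelial list. miR-126-5p had a scaled log2 change of -0.85 (limma adjusted p = 0.443) in MCK-PPARa and miR-126-3p one of 0.27 (adjusted p = 0.737), so 0 of 2 listed members were called. The r of miR-126-3p with rat miR-1 was 0.14. The summed level of both arms ran from 8.95 to 9.15 in NTGa, 8.86 to 9.18 in MCK-PPARa, 8.34 to 9.43 in NTGb and 8.52 to 9.15 in MCK-PPARb. The part of endothelial cells in the readings of rat miR-1 was not tested.

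miR-133a was most like miR-186 (0.88), leukocyte-enriched miR-150 (0.85) and miR-139-5p (0.84), with miR-133b in place 5 at 0.80. miR-133b was most like miR-191 (0.88), rat-named miR-664 (0.82) and miR-186 (0.80). miR-206 was most like miR-193b (0.84), miR-138 (0.79) and miR-365 (0.76). Of deviations from the group means these r were 0.62, 0.30 and 0.81. Over all animals its r with mouse miR-1 was -0.01. Its r with miR-133b, from the same locus, was 0.57. miR-206 is the only member read on card B, so it shares no card reference with the others.

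Other muscle-enriched microRNAs were taken as a list of 4. Of these, miR-208, miR-208b, miR-499 and miR-486, 3 could be tested. In MCK-PPARa against NTGa 2 of 3 had negative values and 1 of 3 was called lower, where 2.24% of all assays were called. The called one was miR-499, which is encoded in the slow myosin gene Myh7b (log2 change -3.66, SE 0.30, limma adjusted p = 3.94e-05). miR-486 was at 0.68 and not called. miR-208b was not detected in any of the 3 MCK-PPARa animals, which stand at the floor, so its value of -1.31, also the median of the list, is only a limit. Over all tested assays the median was 0.12. In MCK-PPARb 0 of 3 were called, with miR-499 at -0.08, also the median of the list, beside 0.02 over all assays. There miR-208b had the lowest p of the list, at 1.32 (limma adjusted p = 0.532), and miR-486 was at -0.28. In the difference of effects, MCK-PPARa minus MCK-PPARb, miR-499 was called at -3.58 (SE 0.43, limma adjusted p = 0.00141). In that test 1.12% of all assays were called.

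Of 13 microRNAs known to act in myoblast differentiation, 0 were called in either line. In MCK-PPARa 10 of 13 had positive values, with a median of 0.28 beside 0.12 for all assays. Those of lowest p were miR-221 at 2.22 (limma adjusted p = 0.217, with 2 of 3 NTGa animals at the floor, so no exact size), miR-322 at 1.00 (0.289) and miR-29c at -0.44 (0.363). In MCK-PPARb 8 of 13 were positive, with a median of 0.40 beside 0.02, led by miR-29b at -0.68 (limma adjusted p = 0.516), miR-27a at 0.41 (0.532) and miR-27b at 0.40 (0.559).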

How the data were processed

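Per the file headers and values, the authors deposited 1 Ct per well of TaqMan cards A and B, not normalized, leaving the cell empty where none was found. Each of the 12 animals was run on both cards, giving 24 deposited samples. Per the labels' protocols the PCR ran for 40 cycles. No source used here names the software, threshold or baseline. Columns were matched to samples by name. Wells of an assay were averaged, an empty well beside a called one counting as Ct 40. Scaling used 149 assays on card A and 59 on card B. Values not detected (Ct 35 or more) were set to a floor, -6.56 on card A and -5.66 on card B. Testing required detection in every animal of some group. With limma 3.58.1 (R 4.3.3), 1 linear model of the 4 group means covered the 12 animals, leaving 8 residual degrees of freedom, and calls were made at an adjusted p under 0.05. The fit was tested on simulated data. Ratios were tested by exact permutation, two-sided, and correlations with 100000 permutations. The named assays are the members, the listed muscle and myoblast microRNAs (up to 3 of lowest p), listed cell type markers, neighbours in abundance and the 3 most alike assays. Besides these, rno-miR-196c, miR-19a, miR-877 and miR-374 were named after seeing the data. Members and lists were chosen with earlier results of these data known. Alternatives changed the reference, detection limit, filter, controls, block and animals; ranks by Ct, ratios with miR-206 from Ct as deposited and overlap counts of ratios by reference were added after seeing the data.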

Additional observations from a re-analysis of the deposited data

How the results depend on the processing

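No member was called in either transgenic line, or in the difference between them, under any of the alternatives run. Small values changed sign. Against NTGa, MCK-PPARa turned for mouse miR-1 with the median as reference (0.000134), quantile normalization (0.19), the controls of the other line (0.17) and both control groups pooled (0.0276), for miR-133a with the median (0.0326) and quantile (0.0137), for miR-133b with U6 (-0.055), no reference (-0.0522) and the other controls (-0.00238), and for miR-206 with the other controls (-0.31). In MCK-PPARb it turned for mouse miR-1 with the other controls (-0.0316), for rat miR-1 with U6 (0.24), endogenous controls (0.0264) and quantile (0.0438), for miR-133a with U6 (0.10) and quantile (0.0438), and for miR-133b with the median (-0.048). The difference of effects turned for miR-133a with U6 (-0.37), endogenous controls (-0.0515), no reference (-0.10) and quantile (-0.0302), and for miR-133b with the median (0.29), quantile (0.11) and a limit of Ct 32 (0.0289). Between the control groups it turned for mouse miR-1 (-0.0111) and rat miR-1 (-0.0349) with the median, for miR-133a with U6 (0.38), no reference (0.17) and quantile (0.00704), and for miR-133b with U6 (0.42) and no reference (0.21). U6 there called 1 member, mouse miR-1 (0.83). In MCK-PPARb the ratio of miR-206 to mouse miR-1 turned with no reference (0.0316), and that to miR-133b with U6 (0.0303) and no reference (0.14). The r of the miR-1 assays no longer passed on the scaled level (0.47) or without the 2 farthest animals (0.45). The causes were not tested. The values of miR-206 over mouse miR-1 in MCK-PPARa went from 0.47 to 0.86 with U6 and 0.78 with no reference, and of miR-133a over miR-206 from -0.44 to -0.82 and -0.75. Leaving out 1 animal at a time turned, in MCK-PPARb, rat miR-1 (-0.23 to 0.18), miR-133a (-0.58 to 0.0315), miR-133b (-0.15 to 0.29) and miR-206 (-0.10 to 0.22), with NTGb replicate 2 or 3 or MCK-PPARb replicate 1 left out. It turned the difference for miR-133a (-0.11 to 0.50) and miR-133b (-0.16 to 0.29), and the control groups for miR-133a (-0.54 to 0.0692) and miR-133b (-0.43 to 0.015). Of the ratios, it turned miR-133a over mouse miR-1 in MCK-PPARa (-0.0652 to 0.0816), and in MCK-PPARb miR-133a over rat miR-1 (-0.40 to 0.0338), rat miR-1 over miR-133b (-0.39 to 0.0588), miR-206 over rat miR-1 (-0.0909 to 0.36) and miR-206 over miR-133b (-0.13 to 0.0575). Whether replicate numbers pair the samples could not be settled from deviations from means of 3 animals. Same-numbered littermates had correlations from -0.19 to 0.37 (median 0.06), and other littermate pairs from -0.42 to 0.24 (median -0.02). Among littermates, 6 of 12 animals correlated best with their own number, where each had 3 candidates, 1 of them with its number. The main fit used no pairing. With the replicate block, rat miR-1 in MCK-PPARa was at -0.59 (limma adjusted p = 0.335), 0 members were called, and the calls over all assays went from 6 to 9. The 3 animals per group limit the precision.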

Other observations

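The spread within NTGb depended on the scale. For miR-133b the SD over the 3 animals was 0.0232 cycles on Ct, 0.51 on the scaled level and 0.193 over U6 snRNA. For miR-133a these were 0.175, 0.65 and 0.272, and for miR-206 0.0659, 0.34 and 0.251. In MCK-PPARb the scaled SD of miR-133b was 0.06 and that of its Ct 0.112. The mean Ct of the reference on card A was 28.39, 27.56 and 28.44 in the NTGb animals and lay between 27.67 and 28.13 in the other groups.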
